A study of Mus musculus with 8 samples.

Results

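The balance between pyrophosphate, which blocks the growth of calcium phosphate crystals, and phosphate, which feeds it, is set by a short chain of transporters and enzymes. The list followed here holds 10 genes of that chain: *Abcc6*, *Enpp1*, *Ank*, *Alpl*, *Nt5e*, *Slc20a1*, *Slc20a2*, *Phospho1*, *Mgp* and *Ggcx*. A gene was measured where a probe set of the array carries its symbol in the platform annotation. Of the 10 genes 7 were found, each with 1 probe set, among the 19505 named genes of the array. *Enpp1*, *Ank* and *Phospho1* were not analysed here.

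Annulus fibrosus (AF) is the ring of fibrocartilage around the intervertebral disc. Its RNA was measured in 4 wild-type (WT) mice, numbered 1, 2, 3 and 5, and in 4 *Abcc6*-/- (KO) mice, numbered 6, 7, 8 and 9. The KO mice lack *Abcc6* in the whole body on the C57BL6J strain and serve as a model of pseudoxanthoma elasticum, a human disease of ectopic mineralization. All 8 mice were untreated females aged 7 months, and the AF of the lumbar discs of each mouse was pooled onto 1 Mouse Clariom S array, so that each mouse is 1 replicate.

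Mineralization of connective tissue depends on what is done with ATP outside the cell. ABCC6, a transporter found mainly in the liver, mediates the release of ATP, ENPP1 splits that ATP into AMP and pyrophosphate, and ANK (ANKH in humans) delivers further ATP or pyrophosphate to the outside. NT5E turns the AMP into adenosine and tissue-nonspecific alkaline phosphatase, encoded by *Alpl*, breaks pyrophosphate down to phosphate, while the products of *Slc20a1* and *Slc20a2* carry phosphate into cells and PHOSPHO1 releases it inside matrix vesicles. Matrix Gla protein (*Mgp*) is an inhibitor of mineralization that acts after GGCX, the vitamin K-dependent carboxylase, has modified it.

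None of the 7 measured genes differed between the genotypes at the cutoff of unadjusted p ≤ 0.01 and fold change ≥ 1.75, at which 0.725% of the 22206 probe sets tested were called. In the limma fit, which shares its estimate of the spread over all probe sets, 0 of the 7 had an unadjusted p below 0.05, where 5.28% of all probe sets had one at or below it, and 0 had one in the unpaired *t*-test. For 0 of the 7 the values of the 4 KO mice lay wholly apart from those of the 4 WT mice, which was so for 2.53% of all probe sets. The KO mean was above the WT mean for 5 genes (*Abcc6*, *Alpl*, *Slc20a2*, *Mgp* and *Ggcx*) and below it for 2 (*Nt5e* and *Slc20a1*), with a median KO minus WT difference of 0.27 log2, beside 52.4% above and a median of 0.03 log2 over all probe sets. Across the 7 genes the adjusted p ran from 0.848 to 0.993, and the smallest adjusted p of any probe set on the array was 0.535. For 4 mice against 4 the smallest p that an exact 2-sided permutation test can give is 0.0286.

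A log2 signal says little without the level at which an array reads nothing. On each array that level was taken as the median over 5222 negative controls, which lay between 5.40 and 6.0 log2. By this measure 6 of the 7 genes were above background on all 8 arrays, beside 47.8% of all named probe sets. *Abcc6* was the exception. Against the 95th percentile of the negative controls, between 9.35 and 10.96 log2, *Mgp* was the 1 gene of the 7 that was above on all 8 arrays, beside 5.6% of named probe sets. The remaining genes thus gave low signals, and low signals follow true changes less than proportionally.

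**Figure D1:**
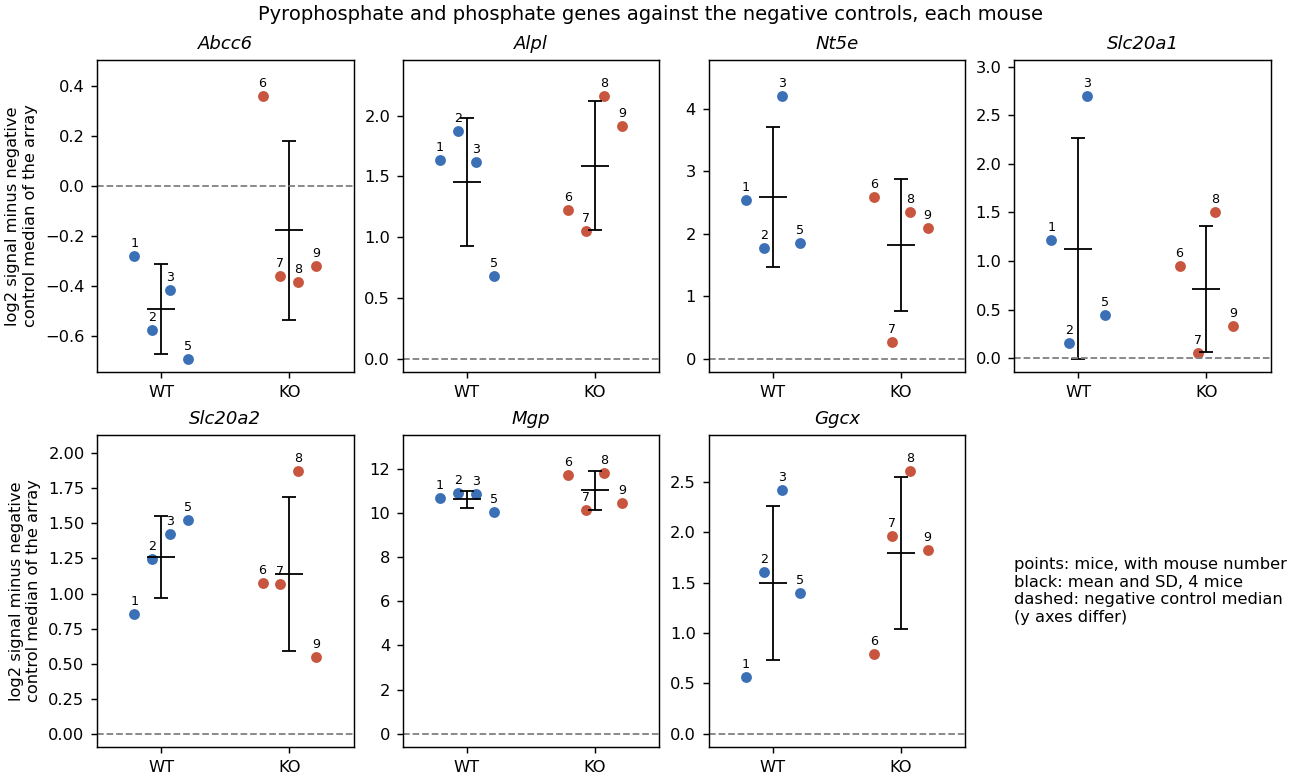
Log2 signal of the 7 measured genes minus the negative control median of the same array (y axis, dashed line at 0; axes differ between panels) for WT (blue) and KO (red) mice; points are mice with their number, and black bars are the mean and SD of 4 mice. *Abcc6* lies below the line in every mouse but KO mouse 6, *Mgp* lies 10.06 to 11.81 log2 above it, and WT and KO mice overlap for all 7 genes.

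The deleted gene comes first, since it checks the genotype labels. Relative to the negative control median, *Abcc6* in WT animals was at -0.28 (mouse 1), -0.58 (mouse 2), -0.42 (mouse 3) and -0.69 log2 (mouse 5). In the KO animals it was at 0.36 (mouse 6), -0.36 (mouse 7), -0.38 (mouse 8) and -0.32 log2 (mouse 9). KO mouse 6 was the 1 animal above background, and there the probe set exceeded 57.7% of the negative controls. The deposited signals differed by 0.45 log2 between KO and WT (95% confidence interval -0.21 to 1.10, limma adjusted p = 0.848, exact permutation p = 0.114). With WT signal already below background, a loss of transcript could not be seen, so the probe set checks no genotype, and where its probes lie relative to the deletion is not given in the sources used here. Without KO mouse 8 the difference was 0.64 log2 with an unadjusted limma p of 0.0406, 1 of 8 such refits to bring any of the 7 genes below 0.05, and its adjusted p was 0.301. Without KO mouse 6 the difference was 0.26 log2, and with the neutrophil marker level as a covariate it was 0.21 log2.

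*Nt5e* encodes the ecto-5'-nucleotidase CD73, a surface enzyme that makes adenosine from the AMP left over when pyrophosphate is formed. The WT values were 7.96 (mouse 1), 7.59 (mouse 2), 9.84 (mouse 3) and 7.51 log2 (mouse 5). Those of the KO animals were 8.40 (mouse 6), 6.26 (mouse 7), 7.75 (mouse 8) and 7.97 log2 (mouse 9). WT mouse 3 was far above every other animal, KO mouse 7 was the lowest, and the remaining 6 mice of both genotypes lay between 7.51 and 8.40 log2. In KO mouse 7 the probe set lay 0.26 log2 above the negative control median. The KO minus WT difference was -0.64 log2 (95% confidence interval -1.95 to 0.68, limma adjusted p = 0.852, exact permutation p = 0.543). Leaving out WT mouse 3 took it to -0.10 log2, and leaving out KO mouse 7 to -0.19 log2, while the other 6 refits gave -0.90 to -0.69 log2. *Nt5e* varied more between mice of a genotype than most of the array, with a residual SD of 1.02 log2 against a median of 0.52 log2, which places it at the 93.0 percentile of all probe sets.

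*Slc20a1* encodes a sodium-dependent phosphate importer of the cell surface. Among WT animals its signal was 6.64 (mouse 1), 5.98 (mouse 2), 8.34 (mouse 3) and 6.11 log2 (mouse 5). Among KO animals it was 6.75 (mouse 6), 6.05 (mouse 7), 6.90 (mouse 8) and 6.21 log2 (mouse 9). Again WT mouse 3 stood apart as the highest, and the 4 KO mice fell inside the range of the WT mice. In KO mouse 7 the probe set lay 0.06 log2 above the negative control median, and in WT mouse 2 it lay 0.16 log2 above, so that in these mice it was hardly told from background. The KO minus WT difference was -0.29 log2 (95% confidence interval -1.39 to 0.81, limma adjusted p = 0.899), and without WT mouse 3 it was 0.24 log2.

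*Slc20a2* encodes the second phosphate importer of this family. WT signals were 6.28 (mouse 1), 7.07 (mouse 2), 7.06 (mouse 3) and 7.18 log2 (mouse 5). KO signals were 6.88 (mouse 6), 7.07 (mouse 7), 7.27 (mouse 8) and 6.42 log2 (mouse 9). WT mouse 1 and KO mouse 9 were the low animals, and the genotypes overlapped over almost their whole range. The difference was 0.01 log2 (95% confidence interval -0.68 to 0.70, limma adjusted p = 0.993), so that a change in signal of more than 0.70 log2 in either direction lies outside the interval. The probe set lay 0.54 to 1.87 log2 above the negative control median, so the interval bounds the signal and not the transcript. The difference turned to -0.04 log2 when each array was centred on its median.

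*Nt5e* and *Slc20a1* were the pair of these genes whose signals followed each other most closely over the 8 mice. Pearson's r was 0.859 (exact permutation p = 0.007, adjusted p = 0.153 over 21 pairs) and Spearman's rho was 0.762. Without WT mouse 3 and KO mouse 7, the 2 mice farthest from the median of *Nt5e*, r was 0.571. That removal narrows the range, so the mice left cannot tell whether the relation holds without those 2. The 20 other pairs each had an unadjusted p above 0.05. The regions just before the first annotated start of both genes are shown because of this shared pattern, with each CG dinucleotide in capitals (RefSeq, GRCm38.p6, plus strand, the 250 bases before the start). *Nt5e* lies on chromosome 9 (chr9:88327359-88327608) and *Slc20a1* on chromosome 2 (chr2:129198523-129198772).

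Nt5e: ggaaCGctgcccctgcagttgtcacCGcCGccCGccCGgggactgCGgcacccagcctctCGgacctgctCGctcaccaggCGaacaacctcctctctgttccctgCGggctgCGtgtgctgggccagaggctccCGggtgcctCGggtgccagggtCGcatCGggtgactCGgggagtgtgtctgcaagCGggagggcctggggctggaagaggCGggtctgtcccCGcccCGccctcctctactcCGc
Slc20a1: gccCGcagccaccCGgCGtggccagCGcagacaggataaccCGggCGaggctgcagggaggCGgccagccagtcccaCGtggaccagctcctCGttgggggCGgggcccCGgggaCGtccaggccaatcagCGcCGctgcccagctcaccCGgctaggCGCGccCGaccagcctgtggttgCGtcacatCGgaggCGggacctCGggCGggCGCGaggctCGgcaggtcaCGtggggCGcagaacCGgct

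Both stretches are rich in CG. The *Nt5e* stretch holds 21 CG dinucleotides and is 72.0% G or C, and 16.3% of 32851 mouse promoter stretches of the same length hold at least as many CG. *Slc20a1* has 29 CG dinucleotides and 75.2% G or C, and 6.78% of stretches hold at least as many. The median stretch has 6 CG and 52.4% G or C. Neither methylation nor the start in use was measured, and these figures describe the sequence only.

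*Alpl* encodes the phosphatase that removes pyrophosphate, and it is also a marker of osteoblasts and mineralizing chondrocytes. The WT animals had 7.06 (mouse 1), 7.69 (mouse 2), 7.26 (mouse 3) and 6.33 log2 (mouse 5). The KO animals had 7.03 (mouse 6), 7.05 (mouse 7), 7.56 (mouse 8) and 7.79 log2 (mouse 9). WT mouse 5 was the lowest of all and KO mouse 9 the highest, while WT mouse 2 lay among the high KO mice. The KO minus WT difference was 0.27 log2 (95% confidence interval -0.50 to 1.04, limma adjusted p = 0.868, exact permutation p = 0.543), and it was 0.02 log2 without WT mouse 5 and 0.47 log2 without WT mouse 2.

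*Mgp* is made in quantity by cartilage and vascular smooth muscle. For *Mgp* the WT arrays read 16.10 (mouse 1), 16.73 (mouse 2), 16.48 (mouse 3) and 15.72 log2 (mouse 5). The KO arrays read 17.52 (mouse 6), 16.12 (mouse 7), 17.20 (mouse 8) and 16.31 log2 (mouse 9). KO mice 6 and 8 were above every WT mouse, whereas KO mice 7 and 9 lay within the WT range. WT averaged 16.26 ± 0.44 and KO 16.79 ± 0.68 (SD, n = 4 each), a difference of 0.53 log2 (95% confidence interval -0.32 to 1.38, limma adjusted p = 0.848, exact permutation p = 0.257). The difference stayed positive without any 1 mouse, from 0.29 to 0.75 log2.

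*Ggcx* encodes the enzyme that carboxylates MGP and the other Gla proteins. WT signals for it were 5.99 (mouse 1), 7.42 (mouse 2), 8.06 (mouse 3) and 7.06 log2 (mouse 5). The KO signals were 6.60 (mouse 6), 7.96 (mouse 7), 8.0 (mouse 8) and 7.70 log2 (mouse 9). WT mouse 1 and KO mouse 6 were the low animals of their groups, and the highest value was that of WT mouse 3. The KO minus WT difference was 0.43 log2 (95% confidence interval -0.62 to 1.48, limma adjusted p = 0.859, exact permutation p = 0.457). It was 0.05 log2 without WT mouse 1, 0.74 log2 without WT mouse 3 and 0.76 log2 without KO mouse 6.

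The chain was then followed outward through 88 further genes of 5 roles, of which 80 were measured. The KO mean was higher for 38 and lower for 42, with a median difference of -0.03 log2. At the cutoff 1 of the 80 was called, in the direction of lower signal in KO mice, where 0.297% of all probe sets were called in that direction and 0.725% in either. An unadjusted p at or below 0.05 was found for 1 gene with higher and 4 with lower signal in KO mice, which is 5 of 80 beside 5.28% of all probe sets (2.82% higher and 2.46% lower). The KO and WT mice did not overlap for 2 of the 80, beside 2.53% of all probe sets. Adjusted p ran from 0.848 to 0.992.

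**Figure D2:**
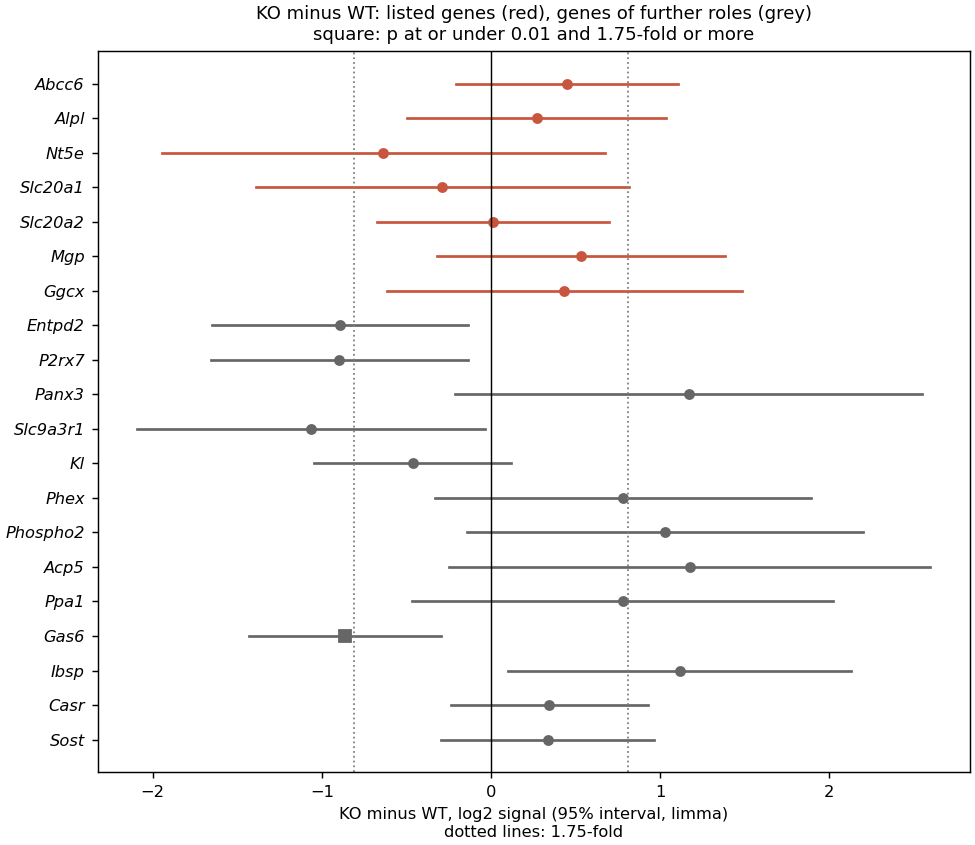
KO minus WT difference in log2 signal (x axis, with the 95% interval from limma; dotted lines at 1.75-fold) for the 7 pyrophosphate and phosphate genes (red) and for the named genes of the further roles (grey). All 7 red intervals span 0, and the 1 square, *Gas6*, marks the gene at the cutoff.

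*Gas6*, which encodes a Gla protein that is a ligand of the TAM receptor kinases, was the gene called. *Gas6* read 8.45 (mouse 1), 8.28 (mouse 2), 8.69 (mouse 3) and 8.38 log2 (mouse 5) on the WT arrays. On the KO arrays it read 7.48 (mouse 6), 7.45 (mouse 7), 7.94 (mouse 8) and 7.48 log2 (mouse 9). In the deposited signal all 4 KO mice lay below all 4 WT mice. All 8 values were above the negative control median, and *Gas6* exceeded the 95th percentile of the negative controls in 0 of 8 mice. Relative to the negative control median of each array, KO mouse 8 (2.55 log2) lay above WT mouse 2 (2.46 log2), so the genotypes overlapped by that measure. KO mice 6, 7 and 9 lay at 1.67, 1.45 and 1.61 log2. *Gas6* was 1.82-fold lower in KO mice (-0.86 log2, standard error 0.26, 95% confidence interval -1.43 to -0.29, unadjusted limma p = 0.0068, adjusted p = 0.848, exact permutation p = 0.0286). The call held without KO mouse 8 (-0.98 log2) and was lost without each of the other 7 mice, with differences of -0.92 to -0.78 log2. With the contrast between positive and negative control medians of each array as a covariate, the *Gas6* difference was -0.67 log2. Its unadjusted limma p was then 0.022 and the call was lost. That contrast was lower in KO mice 6, 7 and 9 than in every WT mouse, so genotype and array contrast cannot be fully told apart. In a bulk tissue, fewer cells that make a transcript and less transcript per cell cannot be told apart either.

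The vitamin K cycle and the Gla proteins, to which *Gas6* belongs, had 20 measured genes of 22, with KO means higher for 9 and lower for 11. Apart from *Gas6* none was at the cutoff. *Pros1*, which encodes protein S and is the closest relative of *Gas6*, averaged 8.26 ± 1.42 in WT against 7.13 ± 0.72 log2 in KO animals (SD, n = 4 each). Its difference was -1.13 log2 (limma adjusted p = 0.848), with WT mouse 3 at 10.33 log2 and the other 7 mice between 6.5 and 8.0 log2. The osteocalcin genes *Bglap* and *Bglap2*, near-identical copies whose probes may share transcripts, had differences of 0.59 and 0.75 log2 (limma adjusted p = 0.848 for both). *Vkorc1*, the vitamin K epoxide reductase, differed by -0.36 log2, and *Ucma*, a Gla protein of cartilage, by -0.34 log2 (limma adjusted p = 0.860 and 0.916).

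**Figure D3:**
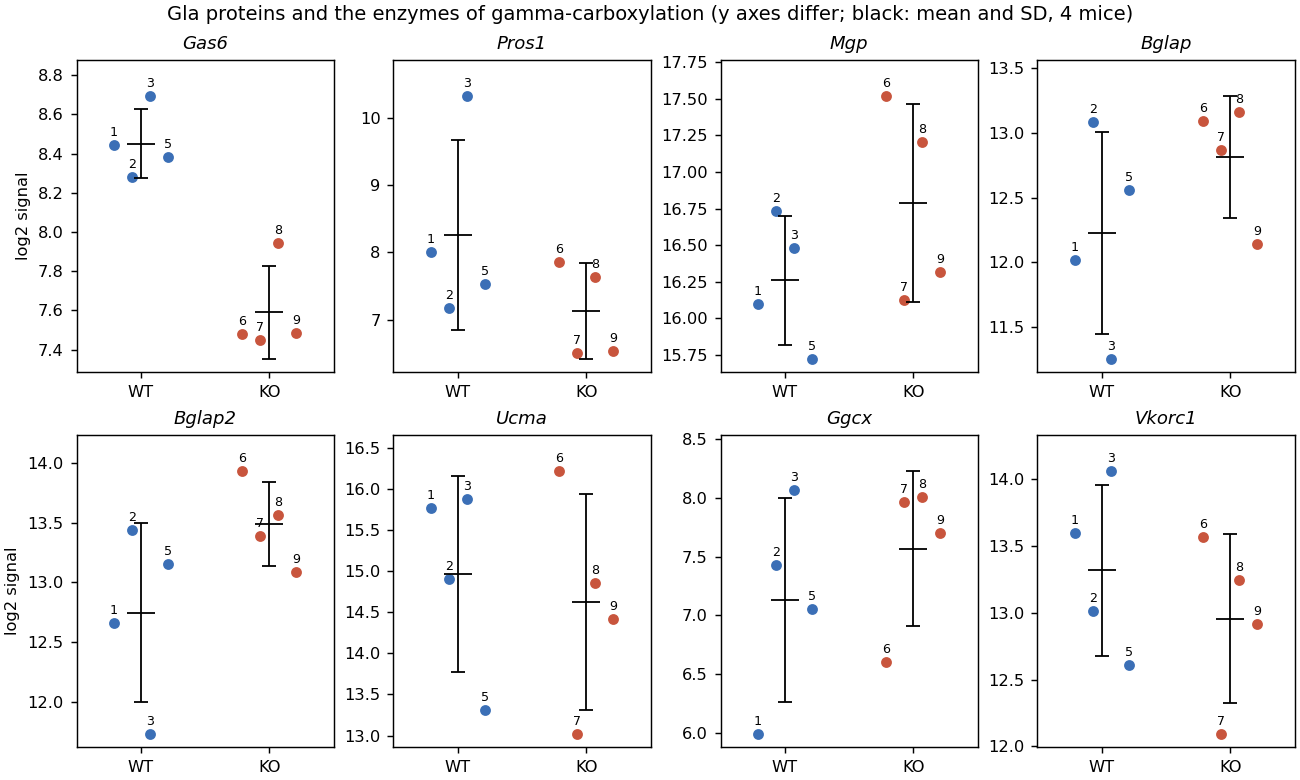
Log2 signal (y axis, which differs between panels) of 6 Gla protein genes and of *Ggcx* and *Vkorc1* in WT (blue) and KO (red) mice; points are mice with their number, and black bars are the mean and SD of 4 mice. The 4 KO mice lie below the 4 WT mice for *Gas6* (7.45 to 7.94 against 8.28 to 8.69 log2), and the genotypes overlap in the other 7 panels.

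Genes of ATP release, of the enzymes that degrade nucleotides and of adenosine handling numbered 20 measured of 25, with KO means higher for 7 and lower for 13, and 0 at the cutoff. *Entpd2*, an ATP-degrading enzyme of the cell surface, had a difference of -0.89 log2 with KO mice 6, 7 and 9 below all WT mice (unadjusted limma p = 0.025, adjusted p = 0.848, exact permutation p = 0.0571). *Entpd2* was above the negative control median in 6 of 8 mice, and below it in KO mice 6 and 9. *P2rx7*, an ATP-gated ion channel, had a difference of -0.90 log2 without overlap in the deposited signal (unadjusted limma p = 0.025, adjusted p = 0.848, exact permutation p = 0.0286). However, *P2rx7* was above the negative control median in only 2 of 8 mice. It read 5.20 log2 in KO mouse 8, where that median was 5.40, and 5.32 log2 in WT mouse 2, where it was 5.82. Relative to the control median the genotypes thus overlapped. *Panx3*, a channel of skeletal cells that releases ATP, had WT signals of 8.29 (mouse 1), 10.92 (mouse 2), 8.26 (mouse 3) and 8.53 log2 (mouse 5). Its KO signals were 10.79 (mouse 6), 9.71 (mouse 7), 10.94 (mouse 8) and 9.24 log2 (mouse 9). WT mouse 2 lay among the highest KO mice and the other 3 WT mice lay below all KO mice. The *Panx3* difference was 1.17 log2 (limma adjusted p = 0.848), and without WT mouse 2 it was 1.81 log2 and at the cutoff (unadjusted p = 0.0027, adjusted p = 0.669).

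All 18 genes of phosphate and citrate transport and of the hormones that govern them were measured, with KO means higher for 10 and lower for 8, and 0 at the cutoff. The renal and intestinal importers *Slc34a1*, *Slc34a2* and *Slc34a3*, the vitamin D hydroxylases *Cyp27b1* and *Cyp24a1*, the scaffold *Pdzk1* and the FGF23 coreceptor *Kl* did not exceed the median of the negative controls on any of the 8 arrays. These 7 genes thus had background-level values only. *Slc9a3r1*, a scaffold that holds phosphate transporters at the membrane, had WT signals of 8.97 (mouse 1), 8.83 (mouse 2), 9.17 (mouse 3) and 9.54 log2 (mouse 5). Its KO signals were 7.45 (mouse 6), 7.54 (mouse 7), 9.58 (mouse 8) and 7.70 log2 (mouse 9). KO mouse 8 was thus the highest of all 8 mice and the other 3 KO mice were below all WT mice. The contrast between the positive and negative control medians of each array was split alike. It was 4.30 log2 in KO mouse 8, the highest, and 2.37 to 2.99 log2 in the other 3 KO mice. In WT mice it was 3.17 to 4.28 log2. Genotype and array contrast cannot be fully told apart in these mice. The *Slc9a3r1* difference was -1.06 log2 (unadjusted limma p = 0.0439, adjusted p = 0.848, exact permutation p = 0.143), and without KO mouse 8 it was -1.57 log2 and at the cutoff (adjusted p = 0.192). *Xpr1*, the phosphate exporter, differed by -0.27 log2 (limma adjusted p = 0.893).

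*Phex*, an osteocyte endopeptidase whose loss causes phosphate wasting, had WT signals of 10.34 (mouse 1), 12.56 (mouse 2), 10.27 (mouse 3) and 10.21 log2 (mouse 5). Its KO signals were 11.24 (mouse 6), 11.83 (mouse 7), 11.74 (mouse 8) and 11.69 log2 (mouse 9). As for *Panx3*, WT mouse 2 was high and the other 3 WT mice were below all KO mice. The difference was 0.78 log2 (limma adjusted p = 0.848), and without WT mouse 2 it was 1.35 log2 and at the cutoff (adjusted p = 0.669).

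Pyrophosphatases, other phosphatases and matrix vesicle genes were measured for 11 of 11, with KO means higher for 6 and lower for 5, and 0 at the cutoff. *Ppa1*, the cytosolic pyrophosphatase, averaged 13.97 ± 0.92 in WT against 14.75 ± 0.99 log2 in KO animals (SD, n = 4 each), with the genotypes overlapping. *Phospho2*, a relative of *Phospho1*, differed by 1.03 log2 and *Acp5*, the tartrate-resistant phosphatase of osteoclasts, by 1.17 log2 (limma adjusted p = 0.848 for both). *Phospho2* was above the negative control median in 6 of 8 mice. *Smpd3*, whose sphingomyelinase is needed for skeletal mineralization, differed by 0.09 log2 (limma adjusted p = 0.966).

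Among the proteins that bind or regulate mineral, 11 of 12 genes were measured, with KO means higher for 6 and lower for 5, and 0 at the cutoff. *Ibsp*, bone sialoprotein, had WT signals of 14.61 (mouse 1), 16.09 (mouse 2), 15.46 (mouse 3) and 13.86 log2 (mouse 5). Its KO signals were 15.77 (mouse 6), 15.89 (mouse 7), 16.20 (mouse 8) and 16.62 log2 (mouse 9). WT mouse 2 again lay within the KO range. The difference was 1.12 log2 (95% confidence interval 0.10 to 2.13, unadjusted limma p = 0.0342, adjusted p = 0.848, exact permutation p = 0.0857). *Casr*, the calcium-sensing receptor, and *Sost*, the Wnt inhibitor of osteocytes, differed by 0.35 and 0.33 log2 (limma adjusted p = 0.848 and 0.849). *Casr* was above the negative control median in 5 of 8 mice.

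The tissue on the arrays held more than AF cells. Of 16 annulus and fibrocartilage markers 12 were above background on all arrays, but the tendon and annulus factors *Mkx* and *Scx* were above it in 1 and 0 of 8 mice. KO means were lower for 13 of the 16, with mean levels of 11.83 to 13.00 log2 in WT and 11.25 to 12.46 log2 in KO mice. All 12 neutrophil markers exceeded the 95th percentile of the negative controls in every mouse, and 11 of the 12 had lower KO means, with mean levels of 17.52 to 18.10 log2 in WT and 16.09 to 18.10 log2 in KO mice. The low KO level was that of KO mouse 6, and KO mice 7, 8 and 9 were at 17.52, 18.10 and 17.49 log2. Markers of osteoblasts and osteocytes, which include *Ibsp*, *Phex*, *Bglap* and *Bglap2*, had higher KO means for 8 of 9 genes, with mean levels of 9.87 to 11.07 log2 in WT and 10.56 to 10.91 log2 in KO mice. WT mouse 2 had the highest osteoblast level of all 8 mice. Osteoclast markers, which include *Acp5*, had higher KO means for 8 of 8 genes, with mean levels of 8.65 to 9.55 log2 in WT and 8.75 to 10.16 log2 in KO mice. None of the annulus, neutrophil, osteoblast or osteoclast markers was at the cutoff. At the cutoff and lower in KO mice were *Mbp* (-1.69 log2), 1 of 5 nerve markers, and *Tnnt3*, 1 of 10 skeletal muscle markers and itself above background in 1 of 8 mice. The mean nerve marker level was 8.15 to 11.58 log2 in WT and 7.23 to 9.13 log2 in KO mice. The nerve markers *Pmp22*, *Mal* and *S100b* were highest in WT mouse 1, at 17.19, 12.42 and 11.31 log2. In the other WT mice they read 11.57 to 13.53, 7.80 to 8.38 and 7.39 to 8.93 log2. The part of nerve and muscle tissue in the *Gas6* difference was not tested.

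The pyrophosphate and phosphate genes were set against these marker levels and against the contrast between positive and negative controls over the 8 mice. Of 35 relations 4 had an unadjusted p below 0.05 and 0 passed adjustment. *Nt5e* and the mean of the annulus markers had r = 0.889 and rho = 0.690 (exact permutation p = 0.006, adjusted p = 0.075). Without WT mouse 3 and KO mouse 7, the 2 mice farthest from the median annulus level, r was 0.415. That removal narrows the range, so the mice left cannot tell whether the relation holds without those 2. *Slc20a1* and the annulus markers had r = 0.851 and rho = 0.714 (exact permutation p = 0.006, adjusted p = 0.075), and r = 0.612 without the same 2 mice. With genotype means subtracted, r was 0.874 for *Nt5e* and 0.852 for *Slc20a1*. WT mouse 3, the mouse with the highest *Nt5e* and *Slc20a1*, had the highest annulus marker level of all 8 mice, 13.00 log2, and KO mouse 7 the lowest, 11.25 log2. The control contrast was 4.22 log2 in WT mouse 3 and 2.37 log2, the lowest, in KO mouse 7. Its r was 0.566 with *Nt5e* and 0.613 with *Slc20a1* (exact permutation p = 0.140 and 0.082, adjusted p = 0.472 and 0.395).

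**Figure D4:**
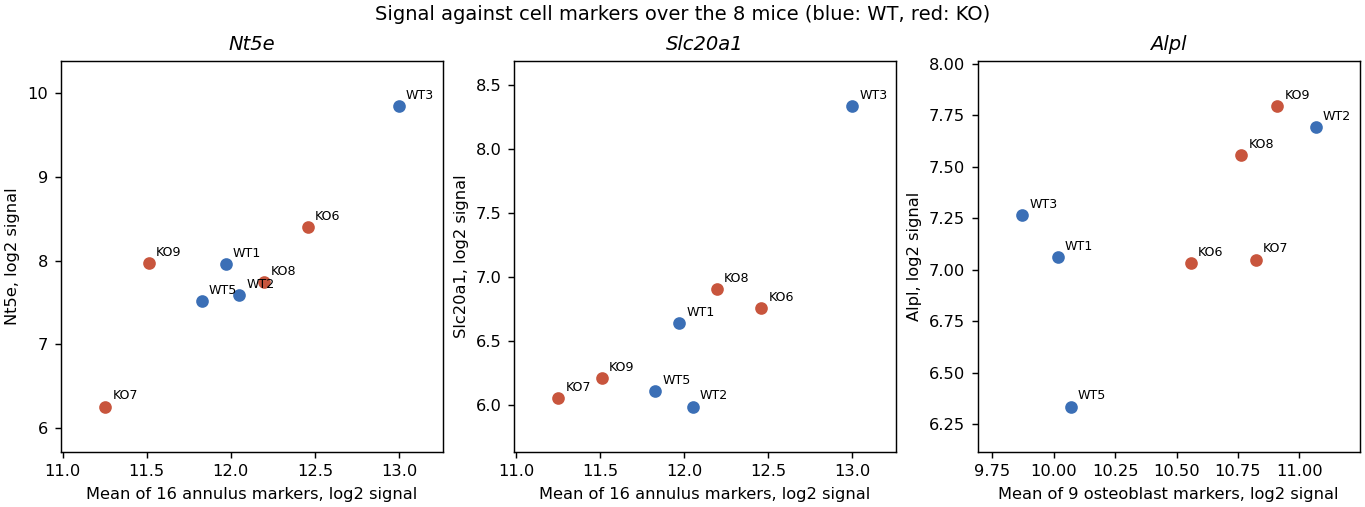
Log2 signal of *Nt5e*, *Slc20a1* and *Alpl* (y axes) against the mean log2 signal of annulus or osteoblast markers (x axes) in WT (blue) and KO (red) mice, each point 1 mouse. WT mouse 3 is the highest point of the *Nt5e* and *Slc20a1* panels on both axes, and no relation passed adjustment over 35.

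*Alpl* and the osteoblast markers had r = 0.632 and rho = 0.524 (exact permutation p = 0.090, adjusted p = 0.395). Without WT mice 1 and 3 r was 0.912 (exact permutation p = 0.015, adjusted p = 0.535). With the osteoblast level as a covariate the KO minus WT difference of *Alpl* was -0.09 log2 in place of 0.27. *Abcc6* and the neutrophil markers had r = -0.912 and rho = -0.905 (exact permutation p = 0.004, adjusted p = 0.075), and r = -0.629 without WT mouse 5 and KO mouse 6. KO mouse 6, the 1 mouse with *Abcc6* above background, had the lowest neutrophil marker level, 16.09 log2. *Abcc6* and the control contrast had r = -0.674 and rho = -0.786 (exact permutation p = 0.060 for r, adjusted p = 0.395). With the control contrast as a covariate the *Abcc6* difference was 0.26 log2 in place of 0.45. What lies behind these relations of a background-level signal was not tested. *Ggcx* and the markers of red blood cell precursors had r = 0.741 and rho = 0.50 (exact permutation p = 0.034, adjusted p = 0.293), and r = 0.220 without WT mouse 1 and KO mouse 8. With those markers as a covariate the *Ggcx* difference was -0.02 log2 in place of 0.43, and with the neutrophil markers it was 0.83 log2 (limma adjusted p = 0.983).

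For each gene the named probe sets with the most similar pattern over the 8 mice are given as a description. *Nt5e* was closest to *Marveld1* (r = 0.990) and *Carmil1* (r = 0.982), and *Slc20a1* to *Slc29a1* (r = 0.972), which encodes a nucleoside transporter that takes up adenosine, and *Pcnx3* (r = 0.967). *Slc29a1*, too, was highest in WT mouse 3, where it read 11.08 log2 and elsewhere 8.96 to 10.07 log2. *Slc20a2* was closest to *Rad18* (r = 0.979) and *Krr1* (r = 0.960), *Mgp* to *Slc35c2* (r = 0.945) and *Pdcd2l* (r = 0.943), and *Ggcx* to *Mcm6* (r = 0.942) and *Dscc1* (r = 0.941). *Alpl* was closest to *Egr3* (r = 0.973) and *Mixl1* (r = 0.928), whose mean signals of 3.93 and 3.71 log2 lay below the negative control medians. *Abcc6* was closest to *Trpd52l3* (r = 0.983) and *Zfp661* (r = 0.974), also below those medians at 4.79 and 4.51 log2. With 19572 named probe sets to choose from and 8 mice, the closest r is high by selection.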

How the data were processed

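Per the labels, the authors summarised the arrays with sst-RMA in the Transcriptome Analysis Console, and the deposited table holds log2 signal. Their detection filter was not applied, as no detection p-values were used here. Of 28846 probe sets 6640 controls were left out and 22206 tested; 19572 carry 1 symbol, 2634 none and 0 several. All sample columns were used. The genome build behind the probe sets is not given in the sources used here.

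The genotypes were compared by limma 3.58.1 (lmFit, eBayes; R 4.3.3) with no covariate and p-values adjusted by Benjamini-Hochberg over all 22206 probe sets. The cutoff is that of the methods. Permutation tests are 2-sided and exact. Named genes were the 10 listed genes, those of each further role at the cutoff or otherwise the 3 with the smallest p, and the 2 probe sets most like each gene. *Pros1*, *Bglap*, *Bglap2*, *Ucma*, *Vkorc1*, *Xpr1*, *Smpd3*, *Mkx*, *Scx*, *Prrg4*, *Enpp5* and the *Slc34a* and other genes without signal were chosen after seeing their values. The genes and lists were chosen with earlier results of these data known. The correlations between pairs of genes were added after seeing the data. Sequences are from RefSeq (GRCm38.p6). Alternatives were other normalizations, filters on low signal, variance models, array weights, the *t*-test, marker levels or the control contrast as covariates, other cutoffs and leaving out each mouse. The fit was tested on simulated data. Precision is limited by the number of arrays, and array correlations ran from 0.893 to 0.969.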

Additional observations from a re-analysis of the deposited data

Results flagged for a closer look

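In 6 of 40 groups of 4 mice (20 named genes in each genotype) 1 mouse lay far from the other 3, by a gap that took more of the group's range than Dixon's 95% critical value allows. For independent groups of normally distributed values chance gives about 1 such group in 20. Here the 40 groups reuse the same mice, and the genes outside the list were named by their p-values in these data. The rate is therefore no background for the 6, and the share over all probe sets was not computed. Of the genes of the list itself this was so for *Slc20a2*, at 6.28 log2 in WT mouse 1 against 7.06 to 7.18 log2 in the other WT mice. *Panx3* in WT mouse 2 was 10.92 log2 against 8.26 to 8.53 log2, and *Phex* in the same mouse was 12.56 log2 against 10.21 to 10.34 log2. *Slc9a3r1* in KO mouse 8 was 9.58 log2 against 7.45 to 7.70 log2, and *Gas6* in that mouse was 7.94 log2 against 7.45 to 7.48 log2. *Casr* in KO mouse 9 was 6.37 log2 against 5.99 to 6.03 log2.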

How the results depend on the processing

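None of the 7 genes was at the cutoff under any alternative in which it was fitted or without any 1 mouse (0 to 0). The filter on the mean left out *Abcc6*, and that on the 95th percentile left in only *Mgp*. Of the 7, 6 were above the negative control median without any 1 mouse, against 1 with the 95th percentile in its place. The count of 1 among the 80 further genes was 0 under quantile normalization, both filters on low signal, an intensity trend with robust priors, the red blood cell precursor or neutrophil markers as a covariate, and an adjusted p under 0.05. It was 2 with array quality weights (*Gas6* and *Slc9a3r1*) and 5 where 0.05 was the limit and no fold change was required. Leaving out 1 mouse gave 0 to 5, with 3 without WT mouse 2 (*Ibsp*, *Panx3*, *Phex*) and 5 without KO mouse 8 (*Gas6*, *Slc9a3r1*, *P2rx7*, *Prrg4*, *Enpp5*). With the control contrast or the osteoblast markers as a covariate the count was 1, but the gene was *Phospho2* and not *Gas6*. The control contrast was lower in KO mice 6, 7 and 9 than in every WT mouse, and highest in KO mouse 8. The *Gas6* difference ran from -0.98 to -0.67 log2 over the alternatives that fitted it, and the filter on the 95th percentile removed it from the test.

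Signs turned for 4 of the 7 genes. *Slc20a1* was 0.21 with the control contrast and 0.35 with the osteoblast markers as a covariate, and from -0.55 to 0.24 log2 without 1 mouse (0.24 without WT mouse 3). *Slc20a2* was -0.0035 under quantile normalization, -0.037 with median centring, -0.22 with array weights, -0.17 with the red blood cell precursor and -0.046 with the osteoblast markers, and from -0.19 to 0.18 log2 without 1 mouse. *Alpl* was -0.089 log2 with the osteoblast and *Ggcx* -0.019 log2 with the red blood cell precursor markers. The cause was not tested. No paired analysis was run, as the labels number each mouse and name no pairing of WT with KO mice.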
